A study of Mus musculus with 2 samples.

Results

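The barcodes described here come from the regenerating mouse digit tip and carried pericyte genes with low smooth muscle myosin and its partners; a part of them also carried fibroblast genes. They were chosen by measured values. A barcode with at least 500 genes, at most 10% mitochondrial UMIs (unique molecular identifiers, each counting 1 captured RNA molecule) and at least 3000 UMIs was a member when 4 conditions held. Rgs5, Kcnj8, Abcc9 and Higd1b had to sum to 10 CP10k or more (UMIs per 10000 UMIs of the barcode), with at least 1 UMI of Notch3 or Mcam. Myh11, Actg2 and Lmod1 had to sum to under 5 CP10k, and the endothelial genes Pecam1 and Cdh5 to under 2 CP10k. This gave 216 members among 3937 kept barcodes, 117 of 2325 barcodes of the Lmx1b library (5.03%, exact 95% binomial interval 4.18 to 6.0%) and 99 of 1612 of the Pdgfra library (6.14%, 5.02 to 7.43%).

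Both libraries came from tissue distal to the amputation plane of adult digits, taken at 14 days after amputation and read as 10x Genomics 3′ single-cell RNA libraries. The Lmx1b library was made from Lmx1bCreERT2;R26-LSL-TdT mice and the Pdgfra library from PdgfraCreERT;R26-LSL-TdT mice, both aged 10 to 12 weeks. Tamoxifen was injected into the peritoneum of all mice at 3 mg daily over 4 days, with amputation 10 days later, so that tdTomato marks cells in which the inducible Cre acted around that time, and their descendants. Each line gave 1 library, how many mice were pooled in it is not given in the sources used here, and no uninduced or unamputated control was analysed here. Line, animal, sex and library therefore cannot be told apart. No difference below has a replicate check, no p-value is given, and all intervals cover counting error only.

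Pericytes are mural cells that lie within the basement membrane of capillaries and small venules and contact the endothelium, whereas vascular smooth muscle cells wrap arterioles and arteries and hold a dense contractile apparatus. Endothelial PDGF-B acting on the receptor Pdgfrb recruits both, and Notch3 signalling maintains them. Kcnj8 and Abcc9 form the ATP-sensitive potassium channel of mural cells, and Rgs5 shortens signalling through G protein-coupled receptors.

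The contractile genes separate these barcodes from their nearest neighbours, so the 250 bases upstream of 6 gene starts are shown for reading against the levels given further on. They were taken from RefSeq on GRCm38.p6 and are printed 5′ to 3′ on the gene's own strand. Acta2 (chr19:34255374-34255623, minus strand), Myl9 (chr2:156775214-156775463, plus strand), Filip1l (chr16:57548992-57549241, plus strand) and Myom1 (chr17:71019307-71019556, plus strand) were among the genes lowest in the members against contractile mural barcodes. Des (chr1:75360042-75360291, plus strand) led the genes higher in the members than in all other barcodes, and Rgs5 (chr1:169655251-169655500, plus strand) is the main gene of the rule. Capitals mark the CArG box, the element known to bind serum response factor, written as CC, 6 positions of A or T, and GG, with up to 1 of the 6 positions allowed to be C or G.
Acta2: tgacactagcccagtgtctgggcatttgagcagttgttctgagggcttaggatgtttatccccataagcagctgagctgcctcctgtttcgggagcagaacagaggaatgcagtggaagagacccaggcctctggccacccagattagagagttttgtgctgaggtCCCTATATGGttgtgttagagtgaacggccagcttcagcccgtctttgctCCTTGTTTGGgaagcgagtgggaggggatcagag
Myl9: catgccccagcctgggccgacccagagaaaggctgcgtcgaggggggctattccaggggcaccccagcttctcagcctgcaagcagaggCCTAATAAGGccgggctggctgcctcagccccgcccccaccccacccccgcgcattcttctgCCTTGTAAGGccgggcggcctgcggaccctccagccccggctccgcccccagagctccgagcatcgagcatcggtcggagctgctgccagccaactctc
Filip1l: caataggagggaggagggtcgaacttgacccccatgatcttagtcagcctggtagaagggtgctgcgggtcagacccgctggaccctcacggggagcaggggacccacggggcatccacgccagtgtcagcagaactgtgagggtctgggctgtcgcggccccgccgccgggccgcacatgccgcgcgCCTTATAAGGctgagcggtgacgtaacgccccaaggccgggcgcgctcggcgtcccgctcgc
Myom1: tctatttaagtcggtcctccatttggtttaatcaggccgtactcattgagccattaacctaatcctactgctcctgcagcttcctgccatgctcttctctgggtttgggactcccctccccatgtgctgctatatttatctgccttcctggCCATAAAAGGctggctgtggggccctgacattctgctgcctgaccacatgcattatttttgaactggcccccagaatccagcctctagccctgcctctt
Des: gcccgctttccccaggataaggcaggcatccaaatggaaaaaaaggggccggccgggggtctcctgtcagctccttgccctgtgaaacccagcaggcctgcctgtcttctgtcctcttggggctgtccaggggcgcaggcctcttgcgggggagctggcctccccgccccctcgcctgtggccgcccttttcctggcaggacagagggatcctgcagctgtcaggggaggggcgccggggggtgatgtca
Rgs5: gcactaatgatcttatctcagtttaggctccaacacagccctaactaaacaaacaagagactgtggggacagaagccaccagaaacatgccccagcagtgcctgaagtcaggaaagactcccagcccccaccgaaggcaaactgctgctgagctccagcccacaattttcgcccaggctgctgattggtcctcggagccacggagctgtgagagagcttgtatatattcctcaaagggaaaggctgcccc
The box is its own reverse complement, so a search of 1 strand covers both. In Acta2, 2 boxes with 1 such C or G began 84 and 34 bases before the start. Myl9 held a box with A or T throughout at 161 bases and another with 1 C or G at 99 bases. The boxes with A or T throughout lay at 62 bases in Filip1l and at 99 bases in Myom1, while the Des and Rgs5 windows held no box. Of the 15 genes chosen as lowest against contractile mural barcodes, 12 had a window in the table, and 3 of these (25%) held a box with A or T throughout. Allowing 1 C or G made it 4 of the 12 (33.3%). These 4 are the low genes printed above, and the windows of the others, which held no box, are not shown. Among all 27025 genes with a window the shares were 1.62% and 9.78%. A gene with several windows counted when any of them held a box, and a window of Filip1l was printed only if it held one. Of the 20 genes chosen as highest against all other barcodes, 10 had a window: none held the box with A or T throughout, and 1 (10.0%), that of Vstm4, held one with 1 C or G. A match describes the letters only.

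The libraries held 66867027 UMIs over 5991 barcodes and 49084751 UMIs over 5032 barcodes before the limits on barcodes. Members had a median of 16976 UMIs in the Lmx1b library and 16691 UMIs in the Pdgfra library, against 20828.5 and 18125 in all other kept barcodes. The 2 libraries shared 10 barcode sequences, none of them a member. Against the members stood 4 comparison sets: contractile mural barcodes, which met the whole rule except that Myh11, Actg2 and Lmod1 summed to 5 CP10k or more (254 barcodes of the Lmx1b library, 178 of the Pdgfra library), endothelial barcodes (605 and 301), Pdgfra-positive collagen-rich fibroblast barcodes (862 and 522) and C1q-positive macrophage barcodes (89 and 90). Macrophages, which should lack mural genes, give the background of free RNA. They were also chosen below the pericyte, contractile and endothelial limits, so their low levels of the rule's genes were partly set by that choice. The split between members and contractile mural barcodes was set on a range of values and not at a gap. The members nearest the limit had sums of 4.9996 and 4.96 CP10k in the Lmx1b and Pdgfra libraries, the nearest barcodes beyond it 5.07 and 5.004 CP10k. Within a factor of 2 of that limit lay 39 and 37 members, and 67 and 71 barcodes on the other side. At the pericyte limit, members began at 10.1 and 10.0 CP10k and the nearest barcodes below had 9.95 CP10k in each library.

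The genes of the rule are given as a description. Summed Rgs5, Kcnj8, Abcc9 and Higd1b ran from 10.1 through a median of 83.5 to 315 CP10k in Lmx1b-library members, and from 10.0 through 76.3 to 538 CP10k in Pdgfra-library members. In contractile mural barcodes the medians were 162 and 135 CP10k, so the members sat lower on this sum with wide overlap. Rgs5 had a UMI in 116 of 117 and 99 of 99 members, with medians of 73.4 and 63.0 CP10k against 152 and 125 CP10k in contractile mural barcodes. A Rgs5 UMI was also found in 34.8% and 61.1% of macrophage barcodes, whose median depths were 27892 and 22439 UMIs. After thinning every barcode to 3000 UMIs, 99.1% and 100% of members and 8.99% and 18.9% of macrophages kept one. Kcnj8, the pore of the channel, was found in 88.9% and 91.9% of members against 1.12% and 0% of macrophages. Its regulatory subunit Abcc9 was found in 89.7% and 89.9% of members, against 2.25% and 6.67% of macrophages. Summed Myh11, Actg2 and Lmod1 had a median of 1.56 and 2.02 CP10k in members, against 19.0 and 12.1 CP10k in contractile mural barcodes.

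**Figure D1:**
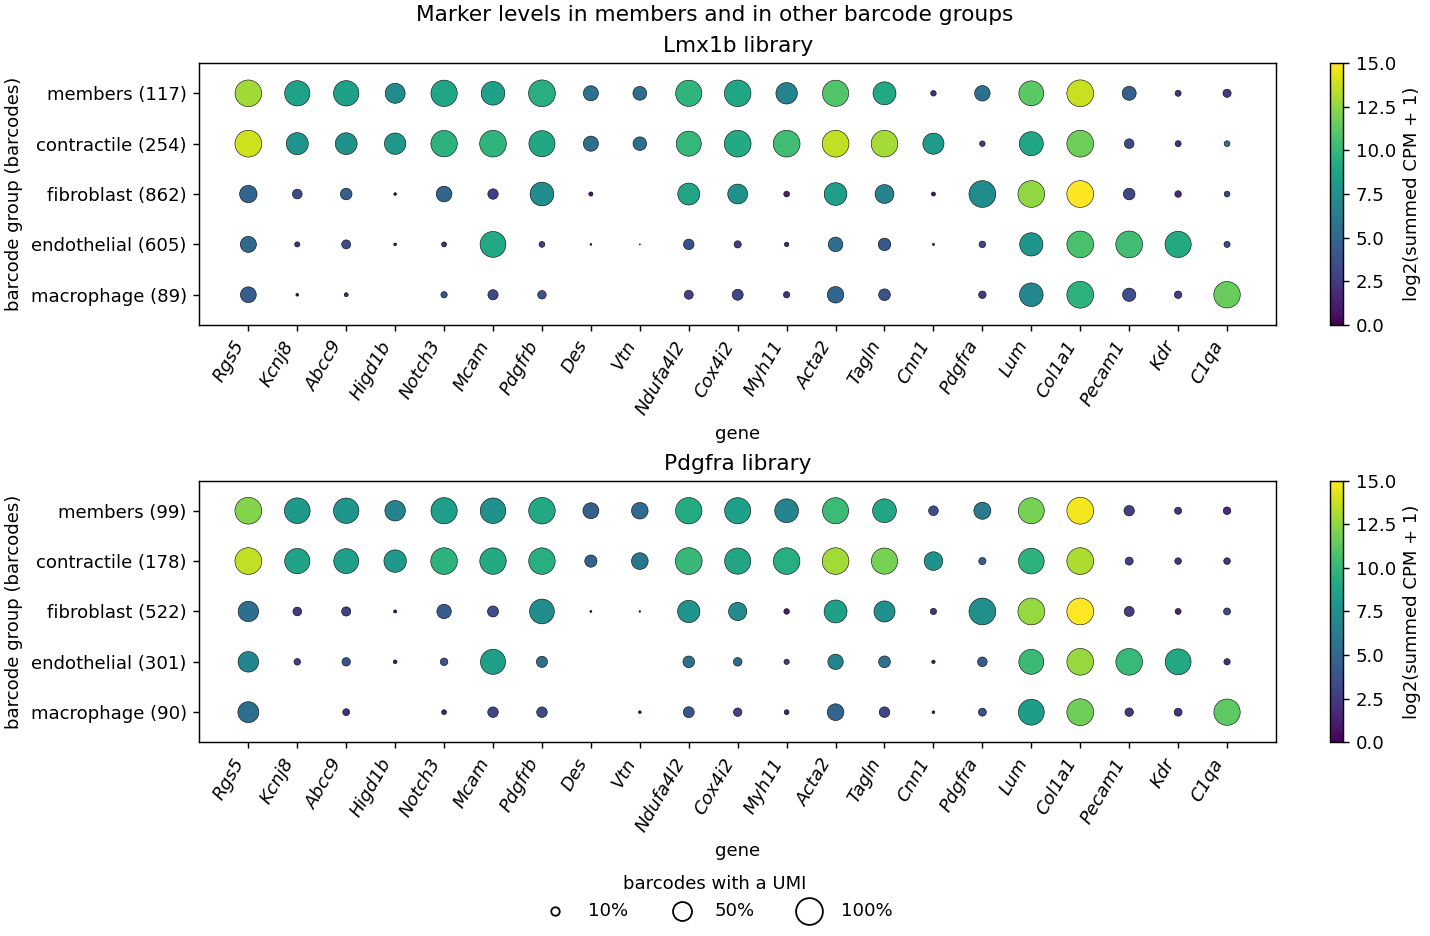
Marker genes (columns) in members and 4 comparison sets of barcodes (rows), for each library. Dot area is the share of barcodes with a UMI and colour is log2 of summed CPM + 1; members share Pdgfrb, Ndufa4l2 and Cox4i2 with contractile mural barcodes and have lower Acta2, Tagln and Cnn1, while Pdgfra is found in 33.3% and 40.4% of members against 4.33% and 7.30% of contractile mural barcodes.

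The label of pericyte was checked on genes the rule did not use. Of 24 other pericyte genes, none was at 0 in the members of either library, and the summed level had a median of 69.1 CP10k (20.8 to 160) and 70.6 CP10k (2.07 to 168), against 67.0 and 73.0 CP10k in contractile mural barcodes and 21.2 and 20.9 CP10k in all other barcodes. Fibroblast barcodes had medians of 33.2 and 31.1 CP10k on this sum, with highest values of 235 and 179 CP10k, above those of the members. The sum was thus close in both mural sets and did not single out the members. Endothelial genes outside the rule summed to a median of 3.37 and 3.11 CP10k in members, against 127 and 107 CP10k in endothelial barcodes. Macrophage genes summed to 0.506 and 0.662 CP10k in members, against 372 and 434 CP10k in macrophages. Fibroblast genes did not follow this pattern. Their sum ran from 0 through a median of 17.7 to 386 CP10k in Lmx1b-library members and from 0.792 through 10.2 to 195 CP10k in Pdgfra-library members. In contractile mural barcodes the medians were 3.36 and 4.93 CP10k and in fibroblast barcodes 94.3 and 122 CP10k. Of the 15 fibroblast genes, 2 were at 0 in members of the Lmx1b library and 1 in those of the Pdgfra library.

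A part of the members carried the fibroblast receptor gene Pdgfra, and this divides the set. A Pdgfra UMI was present in 39 of 117 members of the Lmx1b library (33.3%, 24.9 to 42.6%) and in 40 of 99 of the Pdgfra library (40.4%, 30.7 to 50.7%). The shares were 4.33% and 7.30% in contractile mural barcodes and 7.87% and 8.89% in macrophages. At 3000 UMIs per barcode they were 11.1% and 12.1% in members, 0.394% and 3.37% in contractile mural barcodes, 36.2% and 43.7% in fibroblast barcodes, and 1.12% and 0% in macrophages. Members with a Pdgfra UMI were deeper than those without, at a median of 21494 against 14902.5 UMIs in the Lmx1b library and 59059 against 12059 UMIs in the Pdgfra library. They held 43.9% of all member UMIs of the Lmx1b library and 76.3% of those of the Pdgfra library, so that levels summed over members weigh them accordingly. Their doublet scores were also higher, with medians of 0.0300 against 0.0145 and 0.0828 against 0.0153, and 6 against 4 and 13 against 2 of them were among the highest-scoring barcodes of their library. The part of doublets, of depth and of free RNA in this pattern was not tested. The gene lists and the genes chosen by rank are therefore given with all members and, as an alternative chosen after seeing the data, with only the members lacking a Pdgfra UMI.

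The pericyte genes were lower, and matrix genes higher, in the members that carried a Pdgfra UMI. The pericyte sum was used by the rule to choose the members and is given as a description. It had a median of 28.3 against 122 CP10k in the Lmx1b library and 36.3 against 124 CP10k in the Pdgfra library. Pdgfrb, the PDGF-B receptor, was at 543 against 800 CPM (UMIs scaled to a library total of 1000000, summed over barcodes) and 403 against 810 CPM. Ndufa4l2, a mitochondrial protein gene typical of pericytes, was at 490 against 1156 CPM and 392 against 1186 CPM. Des, the intermediate filament desmin, was at 10.8 against 71.2 CPM and 13.1 against 49.99 CPM. All 3 were lower beside Pdgfra in each library. Summed Col1a1, Col1a2 and Col3a1, the fibrillar collagens, had medians of 234 against 121 CP10k and 599 against 112 CP10k. A sum of 300 CP10k or more was found in 14 of 39 against 4 of 78 members, and in 32 of 40 against 6 of 59, with 4 of 254 and 11 of 178 contractile mural barcodes for comparison. Lum, a collagen-binding proteoglycan of fibroblasts, was at 3620 against 1233 CPM and 5000 against 515 CPM. Mest, a gene high in digit tip blastema fibroblasts, was at 52.8 against 15.3 CPM and 115 against 10.3 CPM. Cspg4, the proteoglycan NG2, was 231 against 210 CPM and 208 against 214 CPM, nearly level in both libraries.

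**Figure D2:**
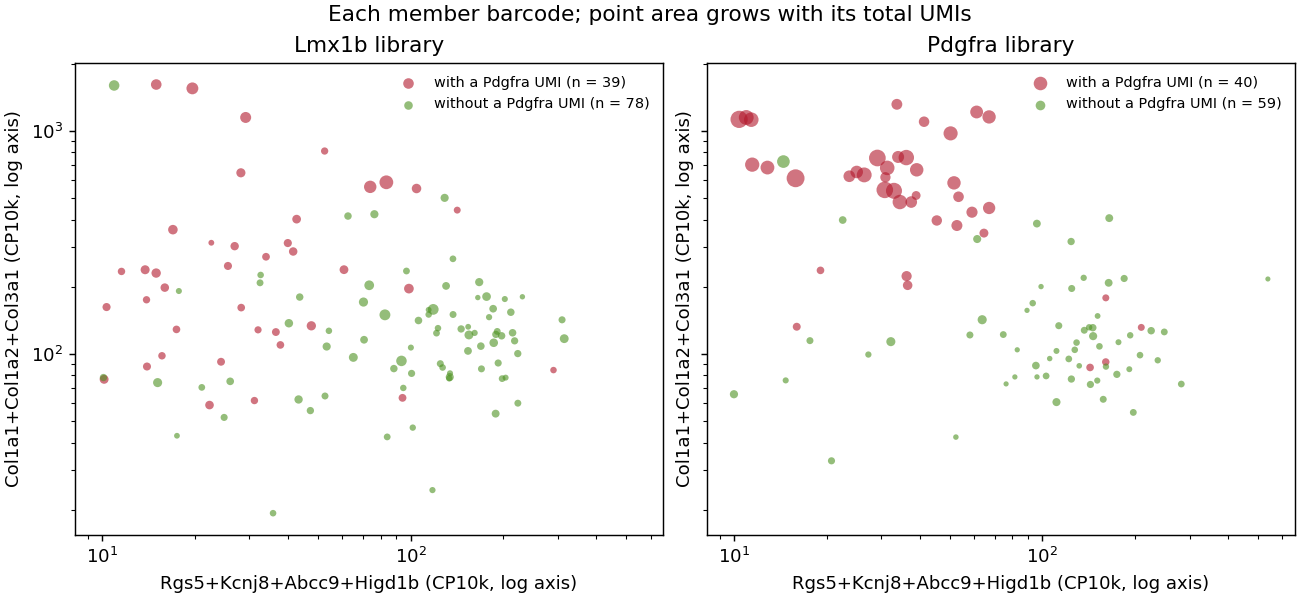
Each point is 1 member, with the summed pericyte genes of the rule (horizontal) against the summed fibrillar collagens (vertical), in CP10k on log axes; point area grows with total UMIs. Members with a Pdgfra UMI lie toward low pericyte sums, at medians of 28.3 and 36.3 CP10k against 122 and 124 CP10k for members without one, and in the Pdgfra library most of them are large points at high collagen sums.

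Against all other kept barcodes, the members were marked by pericyte surface, channel and signalling genes, while endothelial and macrophage genes were lower. A gene counted as higher or lower when log2 of (CPM + 1) in members over (CPM + 1) in the other barcodes was at least 1 or at most -1 in both libraries, among 10216 genes with a mean of at least 5 CPM over both sides in each library. By this rule 175 genes (1.71%) were higher and 399 (3.91%) lower, with medians over all measured genes of 0.06 for the Lmx1b library and -0.07 for the Pdgfra library. The members were selected on values of these same barcodes, so the differences describe them and test nothing, and the other kept barcodes include the contractile mural ones. With only the members lacking a Pdgfra UMI, 475 genes were higher and 697 lower of 10161, so the list counts under that setting stand against a larger background. Des ranked first, at 44.7 CPM in members against 4.595 CPM in other barcodes of the Lmx1b library and 21.8 against 2.39 CPM in the Pdgfra library, 9.72-fold (7.66 to 12.3) and 9.14-fold (6.60 to 12.6). A Des UMI was seen in 31.6% and 35.4% of members and in no macrophage. Sstr2, a somatostatin receptor, was at 66.1 against 4.61 CPM and 39.1 against 5.92 CPM, 14.3-fold (11.7 to 17.6) and 6.61-fold (5.27 to 8.26). Vtn, the adhesion protein vitronectin, was at 36.9 against 3.94 CPM and 35.5 against 5.51 CPM. In both libraries each of these was several-fold higher in the members.

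Receptor and ligand genes of the PDGF, VEGF and angiopoietin systems were found on both the higher and the lower side. Pdgfrb ran from 1.17 through a median of 7.02 to 22.8 CP10k in Lmx1b-library members and from 0 through 6.26 to 32.8 CP10k in Pdgfra-library members. Summed over barcodes it was 687 CPM in members against 136 CPM in others, and 499 against 161 CPM, log2 differences of 2.33 and 1.62. Angpt2, a Tek ligand that loosens contacts between mural cells and endothelium, was at 524 against 40.2 CPM and 97.0 against 20.3 CPM, 13.02-fold (12.1 to 14.0) and 4.79-fold (4.19 to 5.47). Angpt1, the agonist ligand of Tek, was at 43.0 against 11.9 CPM and 29.7 against 13.2 CPM. Of the 24 measured genes of this list, only these 2 ligands were higher in both libraries, and 10 were lower, all known from endothelium: Pdgfb, Pdgfd, Tek, Tie1, Vegfc, Kdr, Flt1, Flt4, Apln and Aplnr. Kdr, the main VEGF receptor, was at 3.44 against 110 CPM and 3.64 against 89.9 CPM. Among members lacking a Pdgfra UMI, 4 of the 24 were higher, with the ligand Pgf and the coreceptor Nrp1 added, and 13 lower. Pdgfra itself is on this list, and its absence from these members was set by that choice. Vegfa was at 81.2 against 37.5 CPM in the Lmx1b library and 43.7 against 35.0 CPM in the Pdgfra library, 2-fold or more in the first only.

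Of 23 measured pericyte genes outside the rule, 16 were higher in both libraries and none was lower, with medians of 1.89 and 1.52 on the log2 scale. Steap4, a metalloreductase, was at 567 against 56.5 CPM and 232 against 77.1 CPM. The respiratory chain subunit Cox4i2, a form responsive to oxygen, was at 475 against 193 CPM and 347 against 130 CPM, and Ndufa4l2 at 863 against 412 CPM and 579 against 265 CPM. Rgs4, a regulator of G protein signalling, was at 116 against 18.6 CPM and 71.9 against 17.4 CPM. These 4 were higher in each library, less so for the pair of mitochondrial genes. Cspg4, often used to mark pericytes, did not separate the members in this tissue, at 219 against 229 CPM and 210 against 157 CPM (log2 differences of -0.06 and 0.42). At 3000 UMIs per barcode, 27.4% and 37.4% of members held a Cspg4 UMI, against 37.4% and 28.9% of fibroblast barcodes. Anpep, Tbx18, Cd248, Nes, Gja4 and Postn were also not 2-fold apart in both libraries. Without the members that had a Pdgfra UMI, 19 of the 23 were higher and 1 lower, with medians of 2.28 and 2.48.

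Channels and receptors for vasoactive signals formed the next group, with 10 of 29 measured genes higher and 1, the natriuretic peptide receptor Npr1, lower. Ednra, the endothelin receptor of mural cells, was at 219 against 45.8 CPM and 129 against 54.2 CPM. Adra2a, an inhibitory adrenergic receptor, was at 92.8 against 10.96 CPM and 102 against 21.9 CPM, 8.46-fold (7.21 to 9.91) and 4.65-fold (4.08 to 5.29). Pde5a, which breaks down cyclic GMP, was at 133 against 25.97 CPM and 94.0 against 26.3 CPM. Ano1, a chloride channel opened by calcium, was at 96.2 against 31.2 CPM and 59.7 against 21.8 CPM. The others were the calcium channel subunits Cacna1c and Cacna2d1, the prostanoid receptors Ptger3 and Ptgir, the vasopressin receptor Avpr1a and the sphingosine phosphate receptor S1pr3. Leaving out members with a Pdgfra UMI, 16 of 30 measured genes were higher, the angiotensin receptor Agtr1a among them, and 3 lower.

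In the Notch list, 2 of 16 measured genes were higher and 5 lower. Heyl, a transcription factor induced by Notch3, was at 178 against 27.7 CPM and 97.6 against 17.02 CPM, 6.43-fold (5.75 to 7.17) and 5.74-fold (5.00 to 6.57). It was counted with the pericyte genes. Hey2, another Notch target, was at 43.8 against 7.29 CPM and 20.6 against 6.22 CPM, and the ligand Jag1 at 183 against 67.6 CPM and 107 against 47.4 CPM. Notch4, Jag2, Dll4, Lfng and Mfng were lower. In members lacking a Pdgfra UMI, 4 of 17 were higher and 4 lower. Among 31 transcription factors known from mural or limb mesenchyme, 6 were higher and 2, Ebf3 and Meox1, lower. Ebf1 was at 1192 against 216 CPM and 648 against 221 CPM, with a UMI in 117 of 117 and 95 of 99 members. Nr2f1, the nuclear receptor COUP-TFI, was at 81.6 against 7.39 CPM and 36.7 against 13.03 CPM. Ebf2, Foxs1, Nr2f2 and Heyl completed the 6, and with only the members lacking a Pdgfra UMI 13 of the 31 were higher and 3 lower.

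Several secreted and metabolic genes stood among the 20 highest. Mgp, an inhibitor of vessel calcification, was at 5927 against 953 CPM and 2784 against 642 CPM, 6.22-fold (6.10 to 6.33) and 4.33-fold (4.23 to 4.44). Cygb, a globin of fibroblasts and pericytes, was at 728 against 105 CPM and 412 against 102 CPM. Ccl11, the eosinophil chemokine eotaxin, was at 130 against 10.1 CPM and 35.5 against 7.66 CPM. Enpep, an aminopeptidase that cleaves angiotensin, was at 155 against 28.4 CPM and 32.4 against 7.66 CPM. All 4 were higher in each library and each difference was larger in the Lmx1b library. Others of the 20 were Pip5k1b, Pla1a, Kcne4, Tusc5, Naalad2, Serpini1, Atp1b2 and Vstm4. Of 19 measured chemokine and inflammation genes, 4 were higher, namely Ccl11, Ccl2, Cxcl10 and the macrophage growth factor Il34, and Cxcl2 and Ptgs1 were lower. Without members that had a Pdgfra UMI, 7 of 20 were higher and 2 lower. Il34 was at 88.9 against 17.5 CPM and 74.9 against 23.2 CPM.

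At the low end were genes of cell types that the rule kept out or did not seek. Lyz2, the lysozyme of macrophages and neutrophils, was at 17.6 against 1235 CPM and 27.0 against 1651 CPM, 70.1 times lower (51.7 to 97.8) and 61.2 times lower (49.7 to 76.2). Egfl7, an endothelial secreted protein, was at 14.6 against 370 CPM and 14.6 against 274 CPM. Of 18 endothelial genes outside the rule 17 were lower, as were all 12 macrophage genes and 4 of 5 measured keratinocyte genes. None of the 20 cell cycle, 24 immediate early and stress, or 21 hypoxia and glycolysis genes was 2-fold apart in both libraries. Restricted to members lacking a Pdgfra UMI, none of the cell cycle genes was, but 4 of 24 stress genes were higher, the immediate early genes Egr1 and Btg2 and the heat shock genes Hspa1a and Hspa1b. Of the hypoxia genes 2 were then higher and 1 lower. Among the other lists, 2 of 5 osteoclast, 2 of 10 bone, 1 of 12 fibroblast (Sfrp2), 2 of 2 lymphoid and neutrophil and 1 of 2 Schwann genes were lower, and none of these was higher, nor were any of 6 cartilage genes 2-fold apart in both libraries. In those lacking a Pdgfra UMI, fibroblast genes lay well below the other barcodes, with 7 of 12 lower and 1 higher and medians of -1.59 and -2.57. Pdgfra is on this list, and its absence from these members was set by that choice. Then 6 of 10 bone, 4 of 6 cartilage and 3 of 5 osteoclast genes were lower and none was higher, 1 of 2 Schwann genes was higher, and 2 of 2 lymphoid and neutrophil genes were still lower. Of 28 TGF-beta and BMP genes the endothelial coreceptor Eng alone was lower and none was higher. The contractile list had 1 of 22 higher, the myosin light chain kinase Mylk, at 170 against 84.0 CPM and 164 against 80.4 CPM, and the fibrillar matrix list 1 of 32, Col5a3, at 621 against 135 CPM and 381 against 143 CPM. By the same restriction the TGF-beta and BMP list had 2 higher and 3 lower, the contractile list 4 of 22 higher and none lower, and the fibrillar matrix list 3 of 32 higher and 11 lower. The basement membrane list had 1 of 22 genes higher, the collagen receptor subunit Itga1, at 148 against 27.6 CPM and 85.8 against 37.6 CPM. Without the members that had a Pdgfra UMI, 5 were higher and 2 lower, among the higher Col4a1 and Col4a2, the main chains of basement membrane collagen. Col4a1 was then at 2380 and 2407 CPM in members, log2 differences of 1.46 and 1.496. With all members they were 1.26 and 0.70. The 30 genes chosen by rank were still 2-fold or more apart in the same direction in both libraries without those members.

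**Figure D3:**
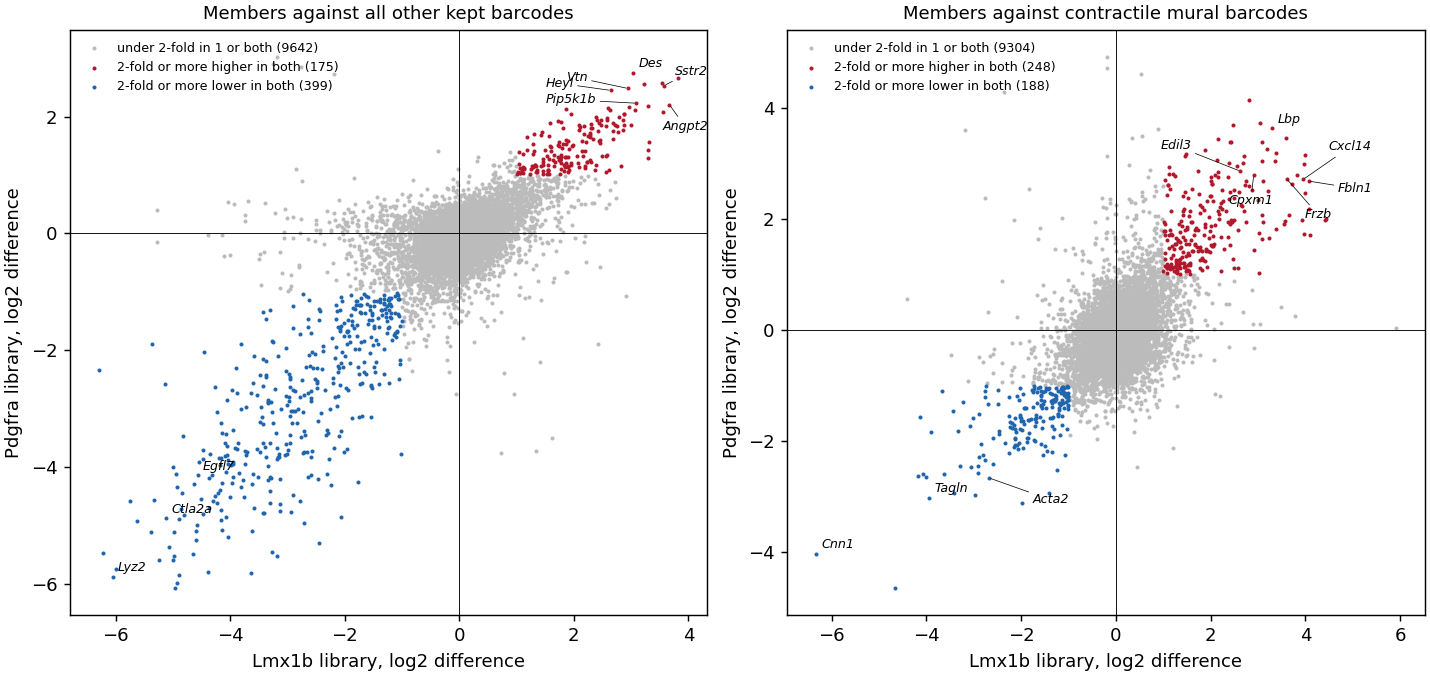
Log2 difference of each measured gene in the Lmx1b library (horizontal) and the Pdgfra library (vertical), on the left for members against all other kept barcodes and on the right for members against contractile mural barcodes. Coloured genes were at least 2-fold apart in both libraries, 175 higher and 399 lower on the left, 248 higher and 188 lower on the right.

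Against contractile mural barcodes, the members had lower contractile genes well beyond the 3 used by the rule. Among 9740 measured genes, 248 (2.55%) were higher and 188 (1.93%) lower, with medians over all measured genes of 0.03 and -0.10. The rule used 3 contractile genes to separate the sets, so the lower level of others of that program is given as a description. Of 24 measured contractile genes outside the rule 19 were lower and none higher, with medians of -1.96 and -1.65. Acta2, smooth muscle actin, ran from 0 through a median of 8.28 to 90.1 CP10k in Lmx1b-library members and from 0 through 10.8 to 122 CP10k in Pdgfra-library members. In contractile mural barcodes it ran from 2.80 through 105 to 393 CP10k and from 0 through 55.6 to 323 CP10k, so the groups overlapped. Summed over barcodes Acta2 was at 1980 against 12694 CPM and 1217 against 7752 CPM, 6.41 times lower (6.22 to 6.61) and 6.37 times lower (6.16 to 6.59). Acta2 was not absent from the members, since 95.7% and 94.9% held a UMI of it, against 38.2% and 38.9% of macrophages, and 76.9% and 81.8% against 5.62% and 6.67% at 3000 UMIs.

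Cnn1, calponin, showed the widest gap of the 15 lower genes chosen by rank in both libraries, at 2.58 against 287 CPM and 10.9 against 194 CPM, 111 times lower (51.0 to 303) and 17.8 times lower (12.7 to 25.7). Tagln, the actin-binding transgelin, was at 512 against 7917 CPM and 448 against 3662 CPM. Myl9, the regulatory light chain whose promoter is printed above, was at 646 against 4405 CPM and 341 against 1735 CPM, 6.82 times lower (6.47 to 7.19) and 5.09 times lower (4.77 to 5.43). These 3 separated the sets strongly while Cald1, the actin regulator caldesmon, did not, at 1347 against 2543 CPM and 1270 against 2426 CPM (log2 differences of -0.92 and -0.93). Myocd, the coactivator of serum response factor in smooth muscle, was at 0.430 against 20.3 CPM and 1.82 against 9.06 CPM, which rests on 1 and 6 UMIs in members; without those carrying a Pdgfra UMI the log2 differences were -3.59 and -0.72. Filip1l, a filamin-interacting protein, was at 199 against 845 CPM and 221 against 930 CPM, and Myom1, a sarcomeric M-band protein, at 10.7 against 82.9 CPM and 10.0 against 44.6 CPM. Kcnk3, a background potassium channel, was at 137 against 665 CPM and 64.6 against 306 CPM, 4.84 times lower (4.31 to 5.44) and 4.74 times lower (4.08 to 5.53). Npy1r, a receptor for neuropeptide Y, was at 8.59 against 70.7 CPM and 7.28 against 48.3 CPM. Synpo2, Mustn1, Rbm24, Id4, Ppp1r14a and Galnt16 were also among the lower genes chosen by rank. All 15 chosen were still lower by 2-fold or more in both libraries without the members that had a Pdgfra UMI, while the count over the contractile list became 13 of 24, with medians of -1.78 and -1.04. Over all measured genes, 92 of 9655 were lower and 80 higher under that setting.

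The pericyte genes outside the rule did not mark the members off from contractile mural barcodes. None of 24 was higher and 5 were lower, Nes, Gja4, Gm13889, Colec11 and Itga7, with medians of -0.16 and -0.56. Without the members that had a Pdgfra UMI, 1 was lower and the medians were 0.14 and 0.18. Several genes took opposite sides in the 2 libraries. Pdgfrb was at 687 against 485 CPM in the Lmx1b library and 499 against 713 CPM in the Pdgfra library. Kcnj8 was at 400 against 221 CPM and 267 against 416 CPM, and Angpt2 at 524 against 221 CPM and 97.0 against 153 CPM. With only the members lacking a Pdgfra UMI these opposite sides were gone, with log2 differences of 0.72 and 0.18 for Pdgfrb, 1.34 and 0.58 for Kcnj8, and 1.12 and 0.07 for Angpt2. Of 31 measured channel and receptor genes 6 were lower, Kcnmb1, Adra1b, Tbxa2r, Ramp1, Pde3a and Prkg1, and Rgs3 was higher. Without the members that had a Pdgfra UMI, 2 were lower, Kcnmb1 and Tbxa2r. The 1 higher gene was then Agtr1a, at log2 differences of 1.98 and 1.06, while Rgs3 was at 0.80 and 0.11. Eln, elastin, the protein of elastic lamellae in artery walls, was at 123 against 1261 CPM and 295 against 1048 CPM, and its log2 differences of -3.34 and -1.82 were -3.14 and -1.82 without those members. Of 11 measured Notch genes 2 were lower, Nrarp and Jag1, with Jag1 at 183 against 381 CPM and 107 against 242 CPM, and neither was 2-fold lower without those members. Pdgfa, a PDGF ligand, was at 216 against 475 CPM and 190 against 392 CPM.

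Most genes that were higher in the members than in contractile mural barcodes depended on the members that carried a Pdgfra UMI. The fibrillar and interstitial matrix list had 11 of 31 genes higher and none lower, and the fibroblast list 7 of 10. Without those members, both counts were 0, of 30 and of 9 measured genes. Pdgfra, among the 7, was absent from the remaining members by that choice. The counts ended in the Pdgfra library: the fibroblast list then had a median of 1.16 in the Lmx1b library, against 0.00 for Pdgfra-library barcodes. Dcn, a collagen-binding proteoglycan, was left with log2 differences of 2.60 and -0.12, Mest with 2.08 and 0.02, Lum with 1.38 and -0.62, and Col1a1 with 1.12 and -0.65. The bone list had 5 of 9 genes higher and 1 lower, and the cartilage list 4 of 5 higher, which became 2 of 9 higher and 1 lower, and 2 of 5 higher. The count over all genes was then 80 of 9655, of which 47 were among the 248. Lbp, the lipopolysaccharide-binding protein, was at 36.9 against 2.87 CPM and 65.8 against 4.36 CPM, 12.9-fold (7.28 to 24.5) and 15.1-fold (8.64 to 28.8), and stayed higher at log2 differences of 1.69 and 3.39. Frzb, a secreted Wnt antagonist, was at 70.9 against 4.92 CPM and 74.3 against 10.4 CPM, with 3.06 and 1.54 left on the log2 scale. Fbln1, an extracellular glycoprotein, was at 139 against 7.37 CPM and 76.4 against 11.1 CPM, with 3.67 and 1.21 left. Olfml3, a secreted olfactomedin family protein, was at 525 against 56.1 CPM and 517 against 90.9 CPM, with 2.56 and 1.31 left. Cxcl14 was at 792 against 50.2 CPM and 135 against 19.8 CPM, with 2.67 and 2.65 left. The other higher genes chosen by rank, Cpxm1, Edil3, Gxylt2, Igfbp3 and Gas6, stayed 2-fold or more higher in the Lmx1b library, at log2 differences of 1.26 to 2.41, and were at -1.02 to 0.74 in the Pdgfra library.

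Cxcl12, a chemokine that attracts leukocytes and progenitor cells, was higher in the members than in contractile mural barcodes by either count. Against all other kept barcodes, with all members counted, it was not 2-fold or more higher in both libraries. It ran from 0 through a median of 1.29 to 262 CP10k in Lmx1b-library members and from 0 through 0.217 to 87.4 CP10k in Pdgfra-library members. In contractile mural barcodes the median was 0 in both libraries, with highest values of 24.02 and 11.3 CP10k. Summed, it was at 1286 against 73.9 CPM and 196 against 59.0 CPM, log2 differences of 4.10 and 1.71. Without the members that had a Pdgfra UMI it was at 951 and 406 CPM, with log2 differences of 3.67 and 2.76. A Cxcl12 UMI was held by 70.1% and 51.5% of members, against 12.4% and 14.4% of macrophages, and a few members with high values carried much of the sum. The adhesion molecule Vcam1 was at 80.3 against 9.01 CPM and 55.2 against 15.8 CPM, but its log2 differences without the members that had a Pdgfra UMI were 1.89 and -0.03. Prrx2, a homeobox gene of limb mesenchyme, was the only one of 31 transcription factors higher in both libraries, at 119 against 25.8 CPM and 196 against 43.6 CPM, and without the members that had a Pdgfra UMI it was left with log2 differences of 1.25 and -0.04.

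**Figure D4:**
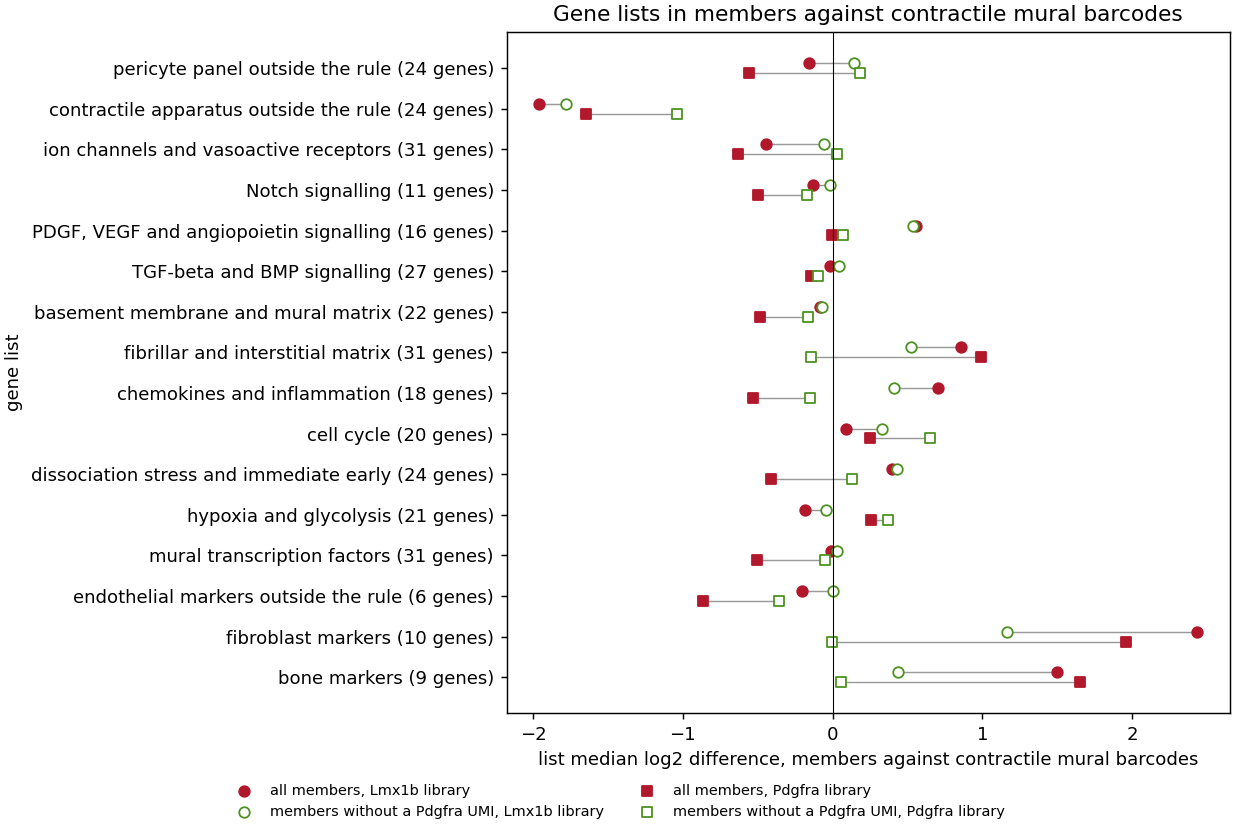
Median log2 difference over the measured genes of each list, members against contractile mural barcodes, for all members (filled) and for members without a Pdgfra UMI (open), with circles for the Lmx1b and squares for the Pdgfra library. The contractile list lies at -1.96 and -1.65 with all members and at -1.78 and -1.04 without the Pdgfra-positive ones, and the fibroblast list at 2.43 and 1.96 and at 1.16 and 0.00.

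Among the members themselves, contractile genes varied together. Summed Acta2 and Tagln ran from 0 through a median of 9.11 to 103 CP10k in the Lmx1b library and from 0 through 13.5 to 168 CP10k in the Pdgfra library. Over 6317 genes ranked by the weaker of their correlations in the 2 libraries, the most alike across members were Myl9 (Spearman's rho 0.81 over 117 barcodes and 0.76 over 99), Tpm2 (0.75 and 0.67), Myl6 (0.65 and 0.59), Tpm1 (0.69 and 0.59) and Csrp1 (0.70 and 0.56). The first 4 encode myosin light chains and tropomyosins, and Csrp1 a LIM protein of smooth muscle. The barcodes share a library and a scaling by depth, so these are descriptions. Members above the median of Acta2 and Tagln had a pericyte sum of 124 CP10k against 36.6 CP10k below it in the Lmx1b library, and 99.0 against 51.6 CP10k in the Pdgfra library. The collagen sum differed little, at 128 against 132 CP10k and 169 against 145 CP10k. The pericyte sum itself went with Vstm4 (0.68 and 0.75), Ndufa4l2 (0.78 and 0.67) and Nr2f2 (0.61 and 0.69), and against Olfml3 (-0.76 and -0.65) and Lum (-0.72 and -0.61). Rgs5 also went against the barcode's total UMIs, at -0.31 and -0.61, whereas Pdgfra went with them at 0.37 and 0.72.

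Cycling barcodes, with at least 2 UMIs over 6 mitotic genes, made up 15 of 117 members (12.8%, 7.36 to 20.3%) in the Lmx1b library and 18 of 99 (18.2%, 11.1 to 27.2%) in the Pdgfra library. In contractile mural barcodes they were 35 of 254 (13.8%, 9.79 to 18.6%) and 11 of 178 (6.18%, 3.12 to 10.8%). In the Pdgfra library 15 of the 18 had a Pdgfra UMI, and the cycling members had a median of 74035.5 UMIs against 14554 in the rest, so that depth moved with the count. In the Lmx1b library the shares were 5 of 39 with a Pdgfra UMI and 10 of 78 without, 12.8% in both.

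The tdTomato label differed between the libraries in these barcodes. No member of the Lmx1b library reached 16 CP10k (0 of 117, which allows a share of up to 2.56% by 3 counts of the total and 3.10% by the exact binomial interval), and the highest had 6.66 CP10k. In the Pdgfra library 58 of 99 members did (58.6%, 48.2 to 68.4%), with a range from 0 through a median of 24.6 to 73.5 CP10k. In the Lmx1b library 1 of 254 contractile mural and 56 of 862 fibroblast barcodes (6.50%) were at or above that level. Lmx1b itself had a UMI in 1 of 117 and 5 of 99 members, against 0 and 3 macrophages. In the Pdgfra library 77 of 178 contractile mural barcodes (43.3%, 35.9 to 50.9%), 33.2% of endothelial, 82.6% of fibroblast and 8 of 90 macrophage barcodes (8.89%) reached the level, and macrophages had a median of 1.37 CP10k. The label in the members was thus above the macrophage background, with an interval that overlaps that of contractile mural barcodes. With limits of 8 and 32 CP10k the share of Pdgfra-library members was 68.7% and 37.4%, against 25.6% and 0% of its macrophages.

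Labelled members were found with and without Pdgfra UMIs. In the Pdgfra library 28 of 40 members with a Pdgfra UMI (70.0%, 53.5 to 83.4%) and 30 of 59 without one (50.8%, 37.5 to 64.1%) reached 16 CP10k, and the intervals overlap. Labelled members had a median of 21314.5 UMIs against 13269 in unlabelled ones, a pericyte sum of 61.5 against 99.0 CP10k and a collagen sum of 218 against 127 CP10k. Summed Acta2 and Tagln were at 14.8 against 12.2 CP10k. Pdgfrb was at 504 against 488 CPM and Mcam at 183 against 192 CPM, nearly level between labelled and unlabelled members. Lum was at 5126 against 1193 CPM and Cxcl12 at 261 against 46.2 CPM, both higher in labelled members. Whether the label marks descent from Pdgfra-expressing cells in each such barcode, or arose from free RNA or joined cells, was not tested.

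**Figure D5:**
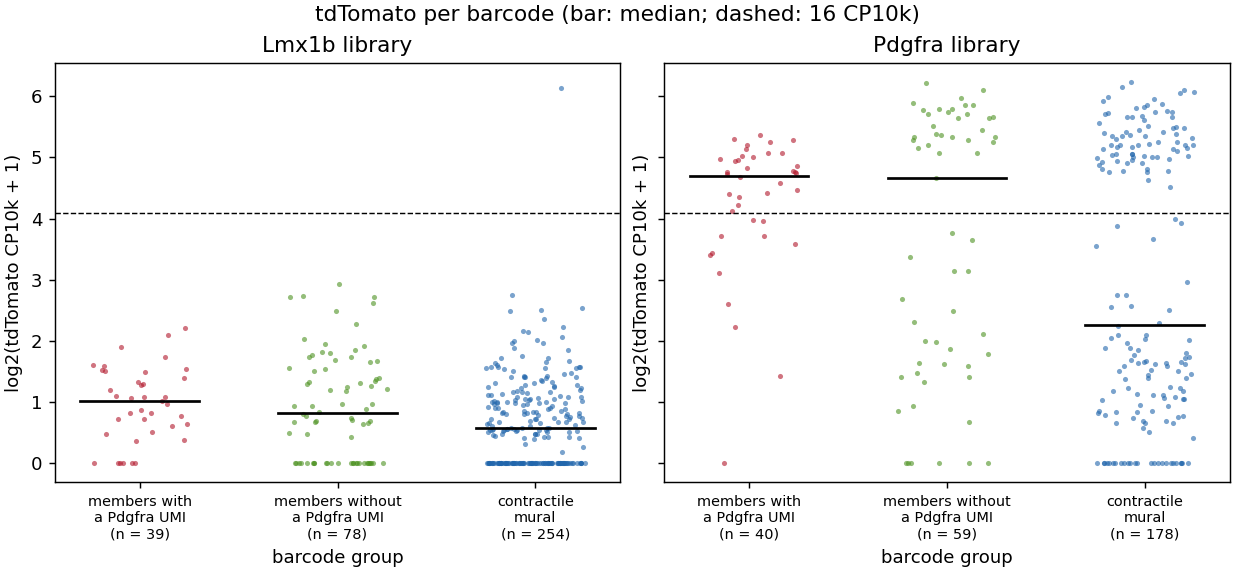
tdTomato per barcode, as log2 of CP10k + 1, in members with and without a Pdgfra UMI and in contractile mural barcodes of each library; bars are medians and the dashed line is 16 CP10k. All Lmx1b-library members lie at or under 6.66 CP10k, and in the Pdgfra library 58 of 99 members and 77 of 178 contractile mural barcodes reach the line.

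Between libraries, the members differed in the reporter, in bone and cartilage genes, in chemokines and, through 1 barcode, in haemoglobin genes. Among 10254 measured genes, 454 (4.43%) were 2-fold or more higher in members of the Lmx1b library than in members of the Pdgfra library and 313 (3.05%) lower, with a median over all genes of 0.13. With that median set to 0 the split was 312 higher and 395 lower. tdTomato was at 112 CPM in Lmx1b-library members against 2406 CPM in Pdgfra-library members, 21.5 times lower (19.0 to 24.4). Chemokine and inflammation genes were higher in 11 of 20 cases and lower in 1, with a median of 1.60. Cxcl12 was at 1286 against 196 CPM, Cxcl14 at 792 against 135 CPM and the neutrophil chemokine Cxcl1 at 321 against 54.6 CPM. All 6 measured cartilage genes and 5 of 10 bone genes were lower. Col2a1, cartilage collagen, was at 110 against 1827 CPM, Ibsp, bone sialoprotein, at 1280 against 13289 CPM and Spp1, osteopontin, at 465 against 6308 CPM.

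Only a part of these differences was as large among members lacking a Pdgfra UMI. Efemp1, a fibulin, was then at 39.1 CPM in Lmx1b-library members against 3.85 CPM in Pdgfra-library members (log2 difference 3.05, against 3.11 with all members). Slco2a1, a prostaglandin transporter, was at 208 against 53.8 CPM (1.93 against 3.37), and Cxcl12 at 951 against 406 CPM (1.22 against 2.71). Ibsp was at 713 against 6603 CPM (-3.21 against -3.38) and Omd, osteomodulin, at 19.2 against 268 CPM (-3.74 against -3.52). Gdpd2, a phosphodiesterase, was at 18.4 against 14.1 CPM (0.36 against 3.59), Bmp4 at 2.30 against 2.56 CPM (-0.11 against -3.49) and Svep1, an adhesion protein, at 8.43 against 8.97 CPM (-0.08 against -2.78). Bone genes were uneven over barcodes, and their sum had a median of 6.86 CP10k and a highest value of 231 CP10k in Lmx1b-library members, and 11.2 and 1278 CP10k in Pdgfra-library members. In contractile mural barcodes these were 5.91 and 74.7 CP10k, and 7.44 and 796 CP10k, so the direction was not particular to the members. Their cartilage sum reached 39.2 CP10k in the Lmx1b and 198 CP10k in the Pdgfra library, at medians of 1.07 and 0.817 CP10k. Fibroblast barcodes went the other way on the bone sum, at medians of 44.1 and 17.7 CP10k. All 4 haemoglobin genes were lower in Lmx1b-library members, with a median of -5.84, and 12529 of the 12730 haemoglobin UMIs of Pdgfra-library members came from 1 barcode. Erythroid genes reached 8667 CP10k in that member, so most of its UMIs were haemoglobin. It stayed among the members lacking a Pdgfra UMI, in which Hbb-bs was at 8478 CPM. Xist was at 33.1 against 0 CPM in members and the Y-linked Ddx3y at 70.0 against 68.5 CPM. Xist was thus seen in Lmx1b-library members only and Ddx3y in those of both libraries, so the 2 sets of members were not matched in Xist. The sex of the mice behind each library was not tested.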

How the data were processed

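The deposited values were unnormalized UMI counts of each gene in each barcode. Per the file headers they came from Cell Ranger 4.0.0, and the labels' protocols name mm10 extended by tdTomato as the reference. How barcodes were filtered before deposit is not given in the sources used here. The 2 matrices held 28001 features, and the listed symbols Gucy1a1, Gucy1b1, Snorc and Trac had no row. The members and the 25 gene lists were chosen with earlier results of these data known.

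Barcodes were kept at 500 genes, 10% mitochondrial UMIs and 3000 UMIs, leaving 3937. Contractile mural barcodes met the member rule with Myh11, Actg2 and Lmod1 at 5 CP10k or more. Endothelial barcodes had Pecam1 and Cdh5 at 5 CP10k or more and were below the mural limits. Fibroblast barcodes had a Pdgfra UMI and Col1a1, Col1a2 and Col3a1 at 50 CP10k or more, below the other limits. Macrophage barcodes had C1qa, C1qb and C1qc at 5 CP10k or more and were below the pericyte, contractile and endothelial limits. UMIs were summed over the barcodes of a set in each library, scaled to CPM, and compared as log2 with a pseudocount of 1. A gene counted when it was 2-fold or more apart in both libraries, among genes with a mean of 5 CPM. With 1 library per line no test across samples was possible; ratios carry exact Poisson intervals and shares exact Clopper-Pearson intervals at 95%.

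Named genes were the 20 highest and 10 lowest against all others, the 10 highest and 15 lowest against contractile mural barcodes, and the 10 highest and 10 lowest between libraries. They were ranked by the smaller of both libraries' log2 differences and needed a UMI in 25% of the relevant barcodes; 2 of them are not reported here and remain in the counts. Scrublet's own threshold marked only 8 and 1 barcodes, so doublets were not removed. As an alternative, the highest scores were left out, at 0.8% per 1000 barcodes, which took 137 and 79 barcodes. Other alternatives changed barcode limits, the pseudocount, the filter on low counts, depth by thinning, and centring. Steps were run in Python 3.11.15 with numpy 2.4.6, scipy 1.17.1, pandas 2.3.3, scanpy 1.11.5 and matplotlib 3.10.9, and tested on simulated data.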

Additional observations from a re-analysis of the deposited data

Results flagged for a closer look

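The genes below were at least 2-fold higher in the members of one library and at least 2-fold lower in those of the other under the same comparison. With 1 library per line, the difference between the libraries was not tested, and line, animal, sex and library cannot be told apart. Log2 differences are given for the Lmx1b library first and the Pdgfra library second.

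Against all other kept barcodes, the haemoglobin genes were lower in Lmx1b-library members and higher in Pdgfra-library members. The differences were -2.77 and 2.85 for Hba-a1, -2.18 and 2.74 for Hba-a2, -3.19 and 3.03 for Hbb-bs, and -3.25 and 2.90 for Hbb-bt. Hbb-bs was at 29.2 CPM in members against 275 CPM in other barcodes, and 2024 against 247 CPM. In the Pdgfra library 12529 of the members' 12730 haemoglobin UMIs came from 1 barcode, against 148 haemoglobin UMIs over all Lmx1b-library members, of which the top barcode held 7. Saa3, an acute phase gene, differed by 1.34 and -3.74, at 273 against 107 CPM and 0 against 12.3 CPM. With only the members lacking a Pdgfra UMI, Saa3 was at 0.06 and -3.74 and Hbb-bs at -2.87 and 5.09.

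Against contractile mural barcodes, the chemokine Ccl2 differed by 2.2 and -1.19, at 169 against 36.0 CPM and 39.1 against 90.6 CPM. Cxcl10 differed by 1.28 and -1.38, at 34.8 against 13.7 CPM and 39.4 against 104 CPM. Ltbp1, which binds latent TGF-beta, differed by -1.08 and 1.44, at 66.1 against 141 CPM and 105 against 37.9 CPM. Gldn differed by -2.76 and 2.38, at 4.72 against 37.9 CPM and 107 against 19.8 CPM. The potassium channel Kcnma1 differed by -1.84 and 2.54, at 3.87 against 16.4 CPM and 14.6 against 1.68 CPM. With only the members lacking a Pdgfra UMI, an alternative chosen after seeing the data, Gldn was at -3.94 and -0.59 and Ltbp1 at -2.71 and -0.18, so their directions were no longer opposite. Ccl2 was then at 1.34 and -1.26, Cxcl10 at 1.20 and -0.64, and Kcnma1 at -2.10 and 0.86.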

How the results depend on the processing

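Of 930 values of named genes under alternatives, 630 moved by less than their counting interval, 299 moved and 1 reversed: Svep1 between libraries was 1.36 with at most 5% mitochondrial UMIs, which left 29 and 16 members. The total mixes unlike settings. Dropping the filter on low counts cannot move a gene's value, and all 75 values under it stayed. Without Pdgfra-positive members 59 of 75 moved, and at 5% mitochondrial UMIs 48 of 75 moved besides the 1 reversal. Of 481 list medians 410 moved by under 0.3 (log2) and 71 by more. The share of members was 3.20% and 3.77% at 5% mitochondrial UMIs, 3.01% and 3.04% with the contractile sum under 2 CP10k, and 3.35% and 3.66% without Pdgfra-positive members, against 5.03% and 6.14%. Counts of genes that moved over 1.5-fold follow. Against all others, higher genes numbered 312 at 5% mitochondrial UMIs, 104 with the contractile sum under 2 CP10k, 313 by the mean of each barcode's CPM, 342 thinned, 299 against barcodes under 10 CP10k on the pericyte sum, and 475 without Pdgfra-positive members (171 shared with the 175). Lower genes numbered 830 with no filter, 660 thinned and 697 without Pdgfra-positive members. Against contractile mural barcodes, higher genes numbered 384 with no filter and 80 without Pdgfra-positive members; lower genes 388 at 5% mitochondrial UMIs, 103 by the mean per barcode and 92 without Pdgfra-positive members. Between libraries, higher genes numbered 1804 at 5% mitochondrial UMIs, 692 with the contractile sum under 2 CP10k, 255 with a pseudocount of 5, 986 with no filter and 1335 thinned, and lower genes 723 at 5%, 206 with a pseudocount of 5, 637 with no filter and 944 thinned. The cause of these shifts was not tested. No paired analysis was possible because no result comes from a test and each line gave 1 library. Members were compared with other barcodes within each library. Depth limits genes under about 5 CPM and every statement on a single UMI.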
